A study of Mus musculus with 8 samples.

Results

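Malat1, Neat1, Firre, Tug1, Lncenc1, Mir17hg and Dancr are 7 long non-coding RNA genes of mouse embryonic stem (ES) cells, taken from 55291 gene symbols in the count tables. They were chosen by name and by their CPM (a gene's counts per 1000000 counts of a library) in each library, compared between treatments within each line and between replicates. All 7 passed the expression filter, which kept 16371 genes for testing. Because treatment and replicate values chose the genes, those values are given as a description with no test. The rule of choice did not name the differences between the cell lines, which were tested, although earlier results of these data were known when the genes were chosen.

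The study asked how loss of the helicase DHX35 or of its partner GPATCH1 affects the fidelity of splicing. RNA was sequenced from 2 edited lines, named DHX35-dTAG and GPATCH1-dTAG. In each the named protein carries an FKBP12 F36V degron (dTAG), which the compound dTAG-13 directs to degradation. Each line was treated for 4 h with DMSO, the solvent, or with 200 nM dTAG-13, giving 4 groups of 2 libraries. The labels call the cells E14, although the growth protocol mentions R1. The lines came from picked colonies, several clones were kept, and the labels do not name the clone sequenced. No untagged line was among the libraries, so the tag, the clone and the handling of a line cannot be told apart.

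As background, Malat1 is an abundant nuclear RNA of nuclear speckles, the bodies that store splicing factors, and Neat1 is the scaffold of paraspeckles, nuclear bodies built on its long transcript. Firre binds HNRNPU through a repeated element and takes part in contacts between chromosomal regions, Tug1 is found in the nucleus and the cytoplasm, and Lncenc1 is a transcript of naive ES cells. Mir17hg is the host transcript of the miR-17-92 microRNA cluster, and Dancr is a host of small nucleolar RNA that was first described as an RNA that keeps progenitor cells undifferentiated.

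Total counts were 12765765 and 14173639 in DHX35-dTAG cells with DMSO, and 12014203 and 13197149 with dTAG-13. In GPATCH1-dTAG cells they were 14663300 and 13353642 with DMSO, and 14994173 and 13149257 with dTAG-13. Gm23935 and CT010467.1, which had the most counts, together took 1.27% to 20.9% of a library. CPM below were therefore scaled with edgeR's TMM factors (trimmed mean of M values, which balance the bulk of the genes between libraries) unless total-count CPM are named. With total counts in place of TMM factors the median log2 difference of all tested genes moved to -0.19 for the lines in DMSO and 0.22 in dTAG-13. For dTAG-13 against DMSO it moved to -0.25 in the DHX35-dTAG line and to 0.17 in the GPATCH1-dTAG line. Changes of members on total counts are to be read against these shifts.

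Replicate 1 of DHX35-dTAG cells with DMSO stood apart from the other 7 libraries. Small RNA genes took 0.187% of its counts and at most 0.0690% elsewhere. Mitochondrial genes took 0.893% of its counts and at least 1.27% elsewhere. Its log2 CPM correlated with those of the rest at a mean of 0.976, where each of the rest had 0.988 to 0.990. Many line and treatment differences moved without this library, and many values without it are given below beside those of all libraries.

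The ES cell label was checked against 10 marker genes, all of which were detected in every library. Their summed level was 5749 to 6349 CPM, with Tfcp2l1 the most abundant at 1555 to 1694 CPM. The 8 fibroblast markers summed to 10.7 to 15.0 CPM, mostly Pdgfrb, and Lum and Postn had 0 counts. Endoderm markers summed to 6.43 to 8.86 CPM, with Dab2 at 0.973 to 2.74 CPM. Of the neural markers Tubb3 was the most abundant, at means of 77.3 and 75.8 CPM in GPATCH1-dTAG and DHX35-dTAG cells, and Neurog2 was near 0. In bulk RNA, fewer cells of a type and less RNA per cell cannot be told apart.

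Dhx35 RNA was at 72.3 to 84.8 CPM in the 4 DHX35-dTAG libraries and at 58.1 to 64.9 CPM in the 4 GPATCH1-dTAG libraries. Gpatch1 RNA was at 23.2 to 25.6 CPM in DHX35-dTAG cells and at 6.90 to 7.31 CPM in GPATCH1-dTAG cells. The groups did not overlap for either gene with TMM factors, while on total-count CPM the lines overlapped for Dhx35. Protein was not measured in these libraries. The line difference of Gpatch1 was -1.75 on the log2 scale (SE 0.08, adjusted p 3.6e-05, edgeR). That of Dhx35 was -0.40 (SE 0.07, adjusted p 0.0406). The call of Dhx35 was lost without either library of DHX35-dTAG cells with dTAG-13 and without any 1 of the 4 GPATCH1-dTAG libraries, where the adjusted p was 0.184 to 0.314, and with total counts, where it was 0.177. The difference itself was -0.43 to -0.36 in those leave-one-out fits and -0.38 with total counts.

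Malat1 lies on the minus strand of chromosome 19 from 5795690 to 5802672 (GRCm38), and its longest annotated transcript is a single exon of 6983 bases. It was the member with the most counts, 40383 to 62707 per library, or 0.324% to 0.472% of all counts. The 95% Wilson interval of that share was at most 0.0075 percentage points wide, which covers counting error only. In DHX35-dTAG cells its level was 4455 and 4031 CPM with DMSO, and 3452 and 3912 CPM with dTAG-13. In GPATCH1-dTAG cells it was 3835 and 3826 CPM with DMSO, and 3748 and 3878 CPM with dTAG-13. Both dTAG-13 libraries were below both DMSO libraries in DHX35-dTAG cells, and the groups overlapped in GPATCH1-dTAG cells. Malat1 made up 82.1% to 87.0% of the counts of the 7 members, so a sum over the members is mostly Malat1.

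Neat1 lies 22035 bases from Malat1 on the same strand, from 5824708 to 5845478. Its annotation holds 4 transcripts, among them the paraspeckle scaffold of 20771 bases and a spliced form of 3004 bases. Counts per gene do not separate these forms. In DHX35-dTAG cells Neat1 was at 98.9 and 87.4 CPM with DMSO, and at 84.8 and 84.7 CPM with dTAG-13. In GPATCH1-dTAG cells it was at 95.6 and 91.8 CPM with DMSO, and at 105 and 103 CPM with dTAG-13. The dTAG-13 libraries were the lowest in DHX35-dTAG cells and the highest in GPATCH1-dTAG cells, on TMM-scaled and on total-count CPM.

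Firre lies on the minus strand of the X chromosome from 50555744 to 50635321, with 10 annotated transcripts of 2 to 20 exons. In DHX35-dTAG cells it was at 111 and 93.1 CPM with DMSO, and at 86.4 and 82.7 CPM with dTAG-13. In GPATCH1-dTAG cells it was at 97.1 and 93.6 CPM with DMSO, and at 72.2 and 71.3 CPM with dTAG-13. Every dTAG-13 library was below every DMSO library of its line, on TMM-scaled and on total-count CPM.

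Tug1 lies on the minus strand of chromosome 11 from 3639785 to 3649673 and overlaps the start of the protein-coding gene Morc2a on the opposite strand, which had 1843 to 2674 counts. In DHX35-dTAG cells it was at 110 and 143 CPM with DMSO, and at 128 and 143 CPM with dTAG-13. In GPATCH1-dTAG cells it was at 136 and 143 CPM with DMSO, and at 114 and 128 CPM with dTAG-13. The lowest value, 110 CPM, was that of the library that stood apart.

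Lncenc1 lies on the plus strand of chromosome 13 from 97434970 to 97497007, and its exons cover 3301 bases. In DHX35-dTAG cells it was at 266 and 332 CPM with DMSO, and at 328 and 343 CPM with dTAG-13. In GPATCH1-dTAG cells it was at 426 and 428 CPM with DMSO, and at 372 and 397 CPM with dTAG-13. All 4 GPATCH1-dTAG libraries were above all 4 DHX35-dTAG libraries. On total-count CPM the lines overlapped, with a lowest GPATCH1-dTAG value of 363 and a highest DHX35-dTAG value of 364.

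Mir17hg (chromosome 14, plus strand, 115042879 to 115046727) ranged from 34.8 to 49.0 CPM, with 445 to 737 counts per library. Its lowest value was in a GPATCH1-dTAG library with dTAG-13 and its highest in a DHX35-dTAG library with dTAG-13. Dancr (chromosome 5, plus strand, 74093060 to 74095406) ranged from 30.9 to 40.4 CPM, with 361 to 547 counts per library. Its highest value was in the library that stood apart.

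**Figure D1:**
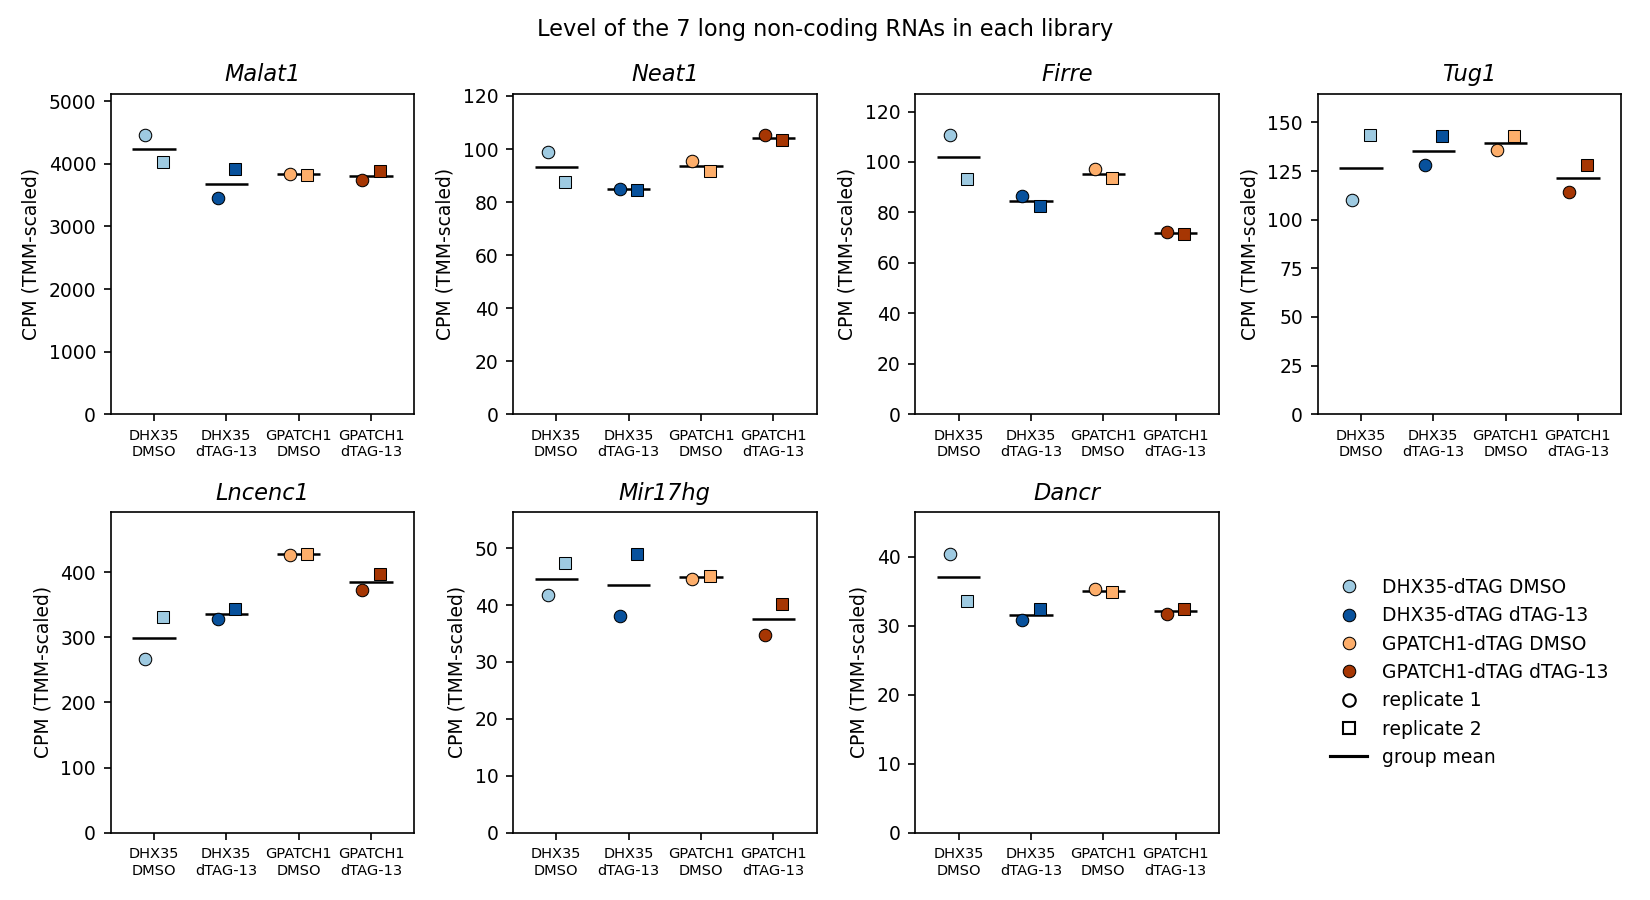
CPM scaled with TMM factors of the 7 RNAs in each of the 8 libraries, with circles for replicate 1, squares for replicate 2 and lines for the mean of each group of 2. Lncenc1 was at 372 to 428 CPM in GPATCH1-dTAG cells and at 266 to 343 CPM in DHX35-dTAG cells, while on total-count CPM the lines overlapped.

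Divided by the length of all annotated exons, the mean level over the 8 libraries was 557 CPM per kb for Malat1 and 110 CPM per kb for Lncenc1. The other 5 lay between 4.52 CPM per kb for Neat1 and 14.5 CPM per kb for Dancr. Tug1 was at 13.4, Mir17hg at 12.1 and Firre at 10.7 CPM per kb. Dancr and Tug1, Tug1 and Mir17hg, and Mir17hg and Firre overlapped in their ranges over the libraries, so their order is not settled. The value of Neat1 divides by 20771 bases and would be higher if the short form made up its counts. By CPM, not corrected for length, Malat1 ranked 9 among all genes in the count tables, Lncenc1 405 and Dancr 5516. Across the 8 libraries the coefficient of variation was 7.25% for Malat1 and 15.3% for Lncenc1, the smallest and the largest of the 7.

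Replicates were compared by the log2 ratio of replicate 2 to replicate 1, beside the median absolute ratio of 8977 genes with a mean of at least 10 CPM. That median was 0.23 in DHX35-dTAG cells with DMSO, 0.10 with dTAG-13, and 0.06 and 0.08 in the GPATCH1-dTAG groups. The largest member ratios were 0.38 for Tug1 and 0.32 for Lncenc1 in DHX35-dTAG cells with DMSO, the group that holds the library that stood apart. Mir17hg had a ratio of 0.37 in DHX35-dTAG cells with dTAG-13, the largest member ratio of that group. In GPATCH1-dTAG cells with dTAG-13 the largest member ratio was 0.20, for Mir17hg. In GPATCH1-dTAG cells with DMSO it was 0.07, for Tug1. On total-count CPM the ratios in that group were -0.24 to -0.37, and 20.9% of the counts of replicate 2 came from the 2 highest genes.

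The line comparison over both treatments asked whether the RNAs differed between GPATCH1-dTAG and DHX35-dTAG cells, 4 libraries against 4. Nothing states that replicates came from separate cultures, so the p-values measure only the spread between these libraries. Of all tested genes 109 were called at an adjusted p under 0.05 with edgeR, 45 higher and 64 lower in GPATCH1-dTAG cells, a share of 0.666%. Unadjusted p was under 0.05 for 2464 genes, or 15.1%. Of the members 0 of 7 were called with edgeR, 3 had an unadjusted p under 0.05, and DESeq2 called 1, Lncenc1, among 132 genes in all. The median difference of the members was -0.03, with 2 higher and 5 lower, and that of all genes was -0.01.

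Lncenc1 had the largest line difference of the members, with a mean of 406 ± 26.7 CPM (SD, n = 4) in GPATCH1-dTAG cells and 317 ± 34.7 CPM in DHX35-dTAG cells. The log2 difference was 0.36 (SE 0.08, unadjusted p 0.00119, adjusted p 0.0911, edgeR), which missed the threshold. It was the 1 member higher without overlap, where 5.63% of all genes were. None of the 7 was lower without overlap, where 6% of all genes were. Over 15 other settings the difference stayed positive, 0.28 to 0.45, while the adjusted p ranged from 2.07e-06 to 0.442 and was under 0.05 in 4 of them. These 4 were DESeq2 (0.0099), no expression filter (7.31e-05), and the fits without DHX35-dTAG DMSO replicate 1 (0.00113) or replicate 2 (2.07e-06).

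Neat1 differed by 0.15 (SE 0.06, adjusted p 0.297) and Firre by -0.17 (SE 0.07, adjusted p 0.314) in edgeR. Without DHX35-dTAG DMSO replicate 2 the difference of Neat1 was 0.12, its lowest value without single libraries. Neat1, without DHX35-dTAG DMSO replicate 1, was called at 0.20 with 902 genes called in all. Firre, without DHX35-dTAG DMSO replicate 2, was called at -0.22 with 5149 genes called in all, while without replicate 1 it was at -0.0998 and not called. In such fits the lone library left in a group is assumed to vary like the other groups. Leaving out 1 of the other 6 libraries gave 16 to 25 genes called and no member, with 25 and 16 genes without replicates 1 and 2 of DHX35-dTAG cells with dTAG-13. There were 20 and 19 without the replicates of GPATCH1-dTAG cells with DMSO, and 21 and 20 without those with dTAG-13. The count of called genes over both treatments therefore rests on single libraries.

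The other 4 members differed less between the lines, with standard errors of 0.07 to 0.10 and adjusted p from 0.627 to 0.962 in edgeR. They were Malat1 at -0.05, Tug1 at -0.01, Mir17hg at -0.10 and Dancr at -0.03. Tug1 changed sign to 0.0048 with total counts. Leaving out single libraries moved Malat1 from -0.09 to -0.00049, Tug1 from -0.10 to 0.09, Mir17hg from -0.19 to -0.0065 and Dancr from -0.09 to 0.04. Without DHX35-dTAG DMSO replicate 1 these values were -0.01, -0.10, -0.15 and 0.04.

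In DMSO alone, 2 libraries against 2, edgeR called 15 genes or 0.0916%, and 0 of the 7 members. Unadjusted p was under 0.05 for 1 member and 2117 genes, and DESeq2 called 48 genes with 1 member, Lncenc1. The Lncenc1 difference was 0.51 (SE 0.11, adjusted p 0.205, edgeR), from 427 ± 1.32 CPM (SD, n = 2) in GPATCH1-dTAG cells and 299 ± 46.4 CPM in DHX35-dTAG cells. Lncenc1 was higher without overlap, where 21.8% of all genes were, and Malat1, at -0.15, was lower without overlap, where 21.3% were. With total counts the differences were 0.33 and -0.33. The difference of Lncenc1 was 0.37 and called, among 121 genes, without DHX35-dTAG DMSO replicate 1. It was 0.69 and called, among 5887 genes with Malat1 (-0.21), Firre (-0.20) and Tug1 (0.35), without DHX35-dTAG DMSO replicate 2. With all libraries Firre was at -0.09, Tug1 at 0.14, Dancr at -0.08, Neat1 at 0.0090 and Mir17hg at 0.0070. Without replicate 1, the library that stood apart, Malat1 was at -0.07, Firre at 0.04, Tug1 at -0.04, Dancr at 0.06, Neat1 at 0.10 and Mir17hg at -0.08, so 4 of these changed sign. The number of genes called was 4 without GPATCH1-dTAG DMSO replicate 2, and 8 without either dTAG-13 replicate of DHX35-dTAG or of GPATCH1-dTAG cells, with no member.

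In dTAG-13 alone edgeR also called 15 genes or 0.0916%, and 0 of the 7 members. Unadjusted p was under 0.05 for 2 members and 1386 genes, and DESeq2 called 46 genes and no member. Neat1 differed by 0.30 (SE 0.09, adjusted p 0.390, edgeR) and Firre by -0.24 (SE 0.10, adjusted p 0.569). With total counts these were 0.52 and -0.018, where the median of all genes was 0.22. Lncenc1 differed by 0.20 (SE 0.11, adjusted p 0.697, edgeR), and by 0.42 with total counts. Neat1 and Lncenc1 were higher without overlap, where 21.8% of all genes were. Firre and Tug1 were lower without overlap, where 23.9% of all genes were. The difference of Tug1, -0.16, flipped to 0.06 with total counts and ranged from -0.25 to -0.08 without single libraries, the weakest without GPATCH1-dTAG dTAG-13 replicate 1. Mir17hg differed by -0.22, which ranged from -0.39 without DHX35-dTAG dTAG-13 replicate 1 to -0.026 without replicate 2 and was 0.014 with total counts. Neat1 and Firre were called without DHX35-dTAG DMSO replicate 1, at 0.30 and -0.24 among 660 genes, and without replicate 2, at 0.30 and -0.24 among 651 genes. With only the 4 libraries compared Neat1 was also called, at 0.30, among 342 genes. Without replicate 1 or 2 of DHX35-dTAG cells with dTAG-13 the count was 4, and without either of GPATCH1-dTAG cells with dTAG-13 it was 5, with no member. The DMSO and dTAG-13 comparisons use different libraries, and whether the line differences differ between treatments was not tested.

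**Figure D2:**
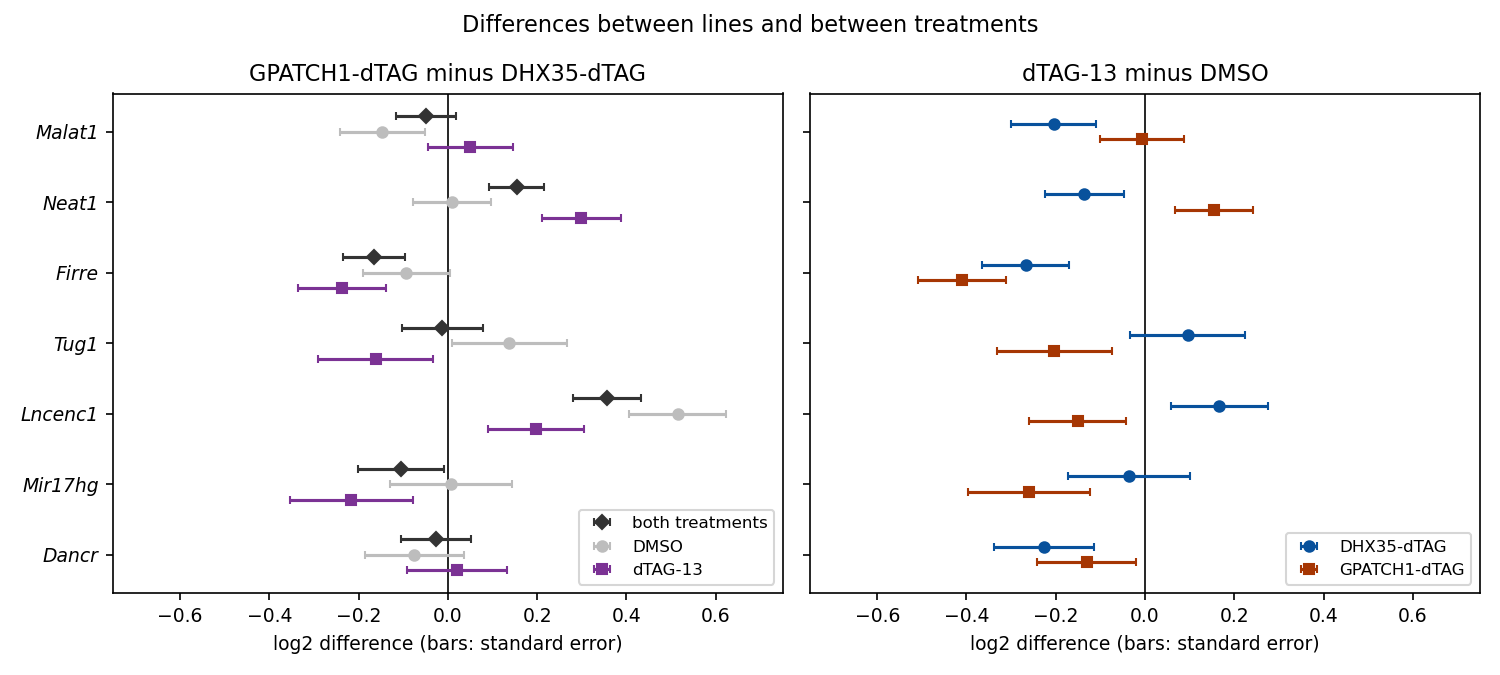
Log2 differences of the 7 RNAs between the lines and between treatments, from edgeR with TMM factors, with bars of 1 standard error. Firre was lower with dTAG-13 in both lines, also on total counts, and Neat1 was lower in DHX35-dTAG cells (-0.14) and higher in GPATCH1-dTAG cells (0.15).

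The treatment comparisons asked what 4 h of dTAG-13 did within each line, and they share their libraries with the line comparisons. With edgeR 0 genes (0%) were called in DHX35-dTAG cells, where 882 genes had an unadjusted p under 0.05 and DESeq2 called 1 gene. In GPATCH1-dTAG cells 0 genes (0%) were called, 486 had an unadjusted p under 0.05 and DESeq2 called 0. Single libraries moved these counts. In DHX35-dTAG cells the count was 2 without DMSO replicate 1, 4949 without DMSO replicate 2, and 1 without either DMSO replicate of GPATCH1-dTAG cells. In GPATCH1-dTAG cells it was 51 without either DMSO replicate of DHX35-dTAG cells, and 1 without GPATCH1-dTAG DMSO replicate 1.

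In DHX35-dTAG cells the log2 difference with dTAG-13 was -0.27 for Firre, -0.23 for Dancr, -0.20 for Malat1 and -0.14 for Neat1. These 4 of 7 members were lower without overlap, where 14.1% of all genes were. With total counts they were at -0.50, -0.47, -0.45 and -0.37, where the median of all genes was -0.25. No member was higher without overlap, where 14.6% of all genes were. Of the other long non-coding RNAs, by sign alone, 16 cytoplasmic or small nucleolar host ones were lower and 4 higher. Of the nuclear ones 10 were lower and 6 higher, and of the ES cell ones 7 and 7. The differences of Tug1 (0.10) and Lncenc1 (0.17) flipped to -0.15 and -0.08 with total counts, and that of Mir17hg was -0.04, and -0.29 with total counts. Without dTAG-13 replicate 1 of this line Mir17hg was at 0.13 and Malat1 at -0.12, and without replicate 2 they were at -0.23 and -0.29. Without DHX35-dTAG DMSO replicate 2 Tug1 was at 0.31, Lncenc1 at 0.34, Neat1 at -0.21 and Dancr at -0.35. Without DHX35-dTAG DMSO replicate 1, the library that stood apart, Firre was at -0.14, Malat1 at -0.13, Neat1 at -0.04, Dancr at -0.09, Mir17hg at -0.12, Tug1 at -0.08 and Lncenc1 at 0.02. The member differences in this line were therefore partly those of 1 library.

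In GPATCH1-dTAG cells the log2 difference was -0.41 for Firre, -0.26 for Mir17hg, -0.20 for Tug1, -0.15 for Lncenc1 and -0.13 for Dancr. These 5 of 7 members were lower without overlap, where 20.3% of all genes were. Other long non-coding RNAs were mostly lower too, by sign alone. Of the ES cell ones 13 were lower and 1 higher (median -0.22), and of the nuclear ones 13 and 3 (median -0.10). Of the cytoplasmic or small nucleolar host ones 12 were lower and 8 higher (median -0.06), where the median of all genes was 0.0029. Neat1, at 0.15, was the 1 member higher without overlap, where 21.5% of all genes were. Leaving out dTAG-13 replicate 1 of this line gave -0.16 for Mir17hg and -0.12 for Tug1, and leaving out replicate 2 gave -0.365 and -0.29, while Firre stayed at -0.44 to -0.38 without any 1 library. On total-count CPM the groups overlapped for Mir17hg, Tug1, Lncenc1 and Dancr, and the differences of Lncenc1 and Dancr flipped to 0.01 and 0.03. Malat1 was at -0.01 with TMM factors and at 0.16 with total counts, where its mean was 3641 ± 566 CPM (SD, n = 2) with DMSO and 4064 ± 42.6 CPM with dTAG-13. With TMM factors and all libraries Firre had the largest treatment difference of the members in both lines, with a standard error of 0.10 in each. With total counts that of Neat1 was larger in GPATCH1-dTAG cells, 0.32 against -0.25 for Firre.

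**Figure D3:**
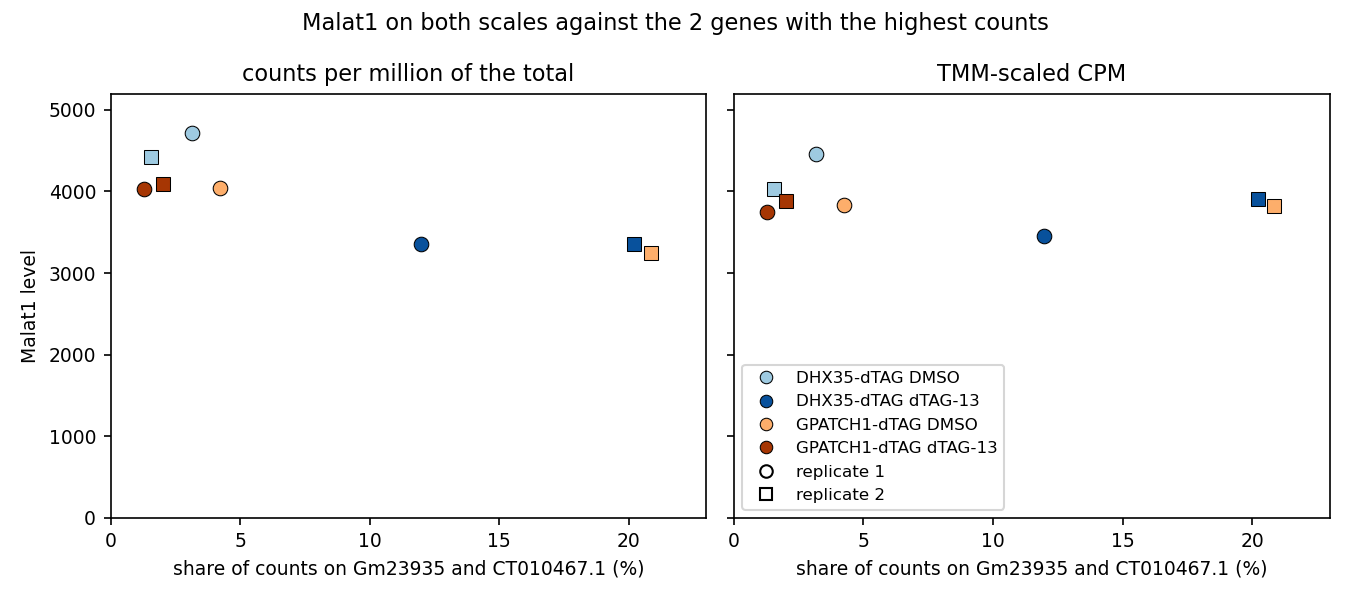
Malat1 in each library as CPM on total counts (left) and as CPM scaled with TMM factors (right), against the percentage of the library's counts on Gm23935 and CT010467.1. In GPATCH1-dTAG cells with DMSO the replicates were at 4042 and 3241 on total counts, and at 3835 and 3826 with TMM factors.

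The pattern of each RNA over the 8 libraries was compared with those of 8977 genes by Pearson's r of log2 CPM, as a description. The 8 points share the 4 groups and the scaling of the libraries. The 2 most alike were Diaph3 (r = 0.988) and Rnf20 (0.968) for Malat1, Ddx47 (0.996) and Rbbp4 (0.975) for Neat1, and 1700030C10Rik (0.974) and Hap1 (0.973) for Firre. For Tug1 they were 1700019D03Rik (0.988) and Syap1 (0.976), and for Lncenc1 Mep1b (0.979) and Klhl20 (0.977). For Mir17hg they were Rab18 (0.975) and Aebp2 (0.955), and for Dancr Taf11 (0.968) and Gxylt1 (0.955). Without the library that stood apart these values were 0.900 to 0.996.

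Among the members themselves the highest r over the 8 libraries was 0.846 for Malat1 and Dancr, which fell to 0.567 without that library. Tug1 and Mir17hg had an r of 0.754, and 0.959 without it. Firre and Dancr had 0.812 and 0.670. The lowest r was -0.667, for Neat1 and Tug1, and -0.684 without that library. Other pairs turned sign without it. Lncenc1 and Dancr went from -0.380 to 0.702, and Tug1 and Dancr from -0.308 to 0.595. Malat1 went from -0.499 to 0.196 with Lncenc1 and from -0.275 to 0.488 with Tug1. Firre and Lncenc1 went from -0.414 to 0.116.

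Genes of known relation to the members were examined for the line difference over both treatments, from 14 lists. Of 154 list genes tested, edgeR called 1, H19, 33 (21.4%) had an unadjusted p under 0.05 where 15.1% of all genes had, and DESeq2 also called 1. The median difference over these genes was 0.03, against -0.01 for all genes. In DMSO alone and in dTAG-13 alone some list medians differed in sign. They were 0.14 and -0.16 for the ES cell long non-coding RNAs, 0.07 and -0.03 for the nuclear ones, and -0.02 and 0.04 for 3 prime end and decay factors. For fibroblast markers they were -0.19 and 0.04, and for neural markers -0.04 and 0.11. These values are smaller than or close to the shifts of all genes with total counts. In all, edgeR called 5149 of 17175 genes without DHX35-dTAG DMSO replicate 2, 902 of 17037 without replicate 1, and 890 of 32642 with no expression filter. Calls of list genes in those fits, given below, are among these.

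For Malat1, the 12 nuclear speckle protein genes had 0 calls with edgeR, 0 unadjusted p under 0.05 and 0 calls with DESeq2. Their median difference was 0.04, with 8 higher. In DMSO alone 6 were higher, with a median of 0.0049, and in dTAG-13 alone 11, with a median of 0.04. Those with the largest differences over both treatments were the splicing cofactors Srrm1 (0.13) and Srrm2 (0.13 from 1278 and 1171 CPM). The 21 tested genes of 3 prime end formation and nuclear decay had 0 calls with edgeR or DESeq2 and 5 unadjusted p under 0.05. Their median was -0.0039, which turned to 0.0143 with total counts. The largest were the RNase P and MRP subunits Pop5 (-0.32, adjusted p 0.347) and Rpp25 (-0.28, adjusted p 0.166). All 4 of these genes were, among 5149 genes, called without DHX35-dTAG DMSO replicate 2, at 0.18, 0.22, -0.48 and -0.34, and Rpp25 was also called without replicate 1, at -0.20. The others then were at 0.098 for Srrm1, 0.055 for Srrm2 and -0.11 for Pop5, none called.

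For Neat1, the 14 paraspeckle protein genes had 0 calls with edgeR or DESeq2 and 2 unadjusted p under 0.05. Of these 14, 12 were higher in GPATCH1-dTAG cells, also with total counts, where 48.0% of all genes were higher with TMM factors, and the median was 0.07. In DMSO alone 11 were higher, with a median of 0.08, and in dTAG-13 alone 9, with a median of 0.04. The summed level of the 14 genes was 4229 CPM in the library that stood apart and 4370 to 4559 CPM elsewhere. How many were higher without that library was not counted. Hnrnph3 was at 39.4 ± 4.60 CPM (SD, n = 4) in GPATCH1-dTAG cells and 30.5 ± 1.49 CPM in DHX35-dTAG cells, without overlap. Its difference was 0.37 (SE 0.08, adjusted p 0.0996, edgeR). Nono, which encodes a core paraspeckle protein, differed by 0.18 (SE 0.08, adjusted p 0.325). Both were called without DHX35-dTAG DMSO replicate 2, at 0.36 and 0.27, and Hnrnph3 was also called without replicate 1, at 0.38, where Nono fell to 0.10 and was not called. With no expression filter, where 890 genes were called, Hnrnph3 was called at 0.38.

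For Firre, the 8 partner genes, of which Hnrnpu was the most abundant, had 0 calls with edgeR or DESeq2 and 0 unadjusted p under 0.05. Their median was 0.07 and 7 were higher. The largest were Smc3 (0.17), of cohesin, and Suz12 (0.17), of the Polycomb repressive complex, both called without DHX35-dTAG DMSO replicate 2, at 0.22 and 0.24, and at 0.12 and 0.10 and not called without replicate 1. A list of 19 other nuclear or chromatin long non-coding RNAs, 16 of them tested, had 0 calls with edgeR or DESeq2, 4 unadjusted p under 0.05 and a median of 0.01. Xist differed by -0.56 (adjusted p 0.257, edgeR) and Trp53cor1 by 0.55 (adjusted p 0.147), and without DHX35-dTAG DMSO replicate 2 both were called, at -0.68 and 0.68. Without replicate 1 they were at -0.40 and 0.44 and not called, and with no expression filter Trp53cor1 was called at 0.57.

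For Lncenc1, 14 of 17 other ES cell long non-coding RNAs were tested, with 0 calls by edgeR or DESeq2, 5 unadjusted p under 0.05 and a median of -0.11. Platr14 was at 17.4 ± 2.92 CPM (SD, n = 4) in GPATCH1-dTAG cells and 23.3 ± 1.78 CPM in DHX35-dTAG cells, without overlap. Its difference was -0.43 (SE 0.08, adjusted p 0.0579, edgeR), opposite in sign to that of Lncenc1. Platr26 differed by -0.49 (SE 0.15, adjusted p 0.199). Without DHX35-dTAG DMSO replicate 2 both were called, at -0.41 and -0.49, and Platr14 was also called without replicate 1, at -0.44, and with no expression filter, at -0.41.

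The 10 ES cell markers had 0 calls with edgeR or DESeq2, 4 unadjusted p under 0.05 and a median of -0.07. Of these 10, 3 were higher and 7 lower, and Klf4 had the lowest adjusted p, 0.254 in edgeR. Dppa5a differed by -0.37 (adjusted p 0.320) and Pou5f1 by -0.24 (adjusted p 0.302), both called without DHX35-dTAG DMSO replicate 2, at -0.55 and -0.35. Without replicate 1, the library that stood apart, the differences were -0.115 and -0.115 and not called, and with no expression filter both were called, at -0.345 and -0.23. Of the fibroblast, endoderm and neural markers 3, 5 and 4 were tested. None was called with edgeR or DESeq2, and 1, 2 and 1 had an unadjusted p under 0.05. Their medians were -0.08, 0.15 and 0.03. In the same order 1, 3 and 4 were higher, and 2, 2 and 0 were lower. The largest differences were in Thy1 (-0.63, called at -0.75 without DHX35-dTAG DMSO replicate 2), Pdgfrb (0.25), Dab2 (0.74, called at 0.88 without that replicate), Gata4 (0.64), Sox1 (0.26) and Tubb3 (0.03). Without replicate 1 Thy1 was at -0.47, Dab2 at 0.63 and Tubb3 at -0.0049, none called, and with no expression filter Dab2 was called at 0.76. Pdgfrb ranged from 0.11 without GPATCH1-dTAG DMSO replicate 1 to 0.36 without replicate 2. Counts were few for Thy1 (15 to 49 per library), Dab2 (11 to 38) and Gata4 (13 to 28). The part of these markers in the difference of Lncenc1 was not tested.

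The 6 regulators of Mir17hg, of the MYC and E2F families, had 0 calls with edgeR or DESeq2, 2 unadjusted p under 0.05 and a median of -0.16. Mycn differed by -0.26 (SE 0.08, adjusted p 0.226) and E2f3 by -0.25 (SE 0.06, adjusted p 0.116). The lines overlapped for E2f3, at 56.1 ± 10.3 CPM (SD, n = 4) in GPATCH1-dTAG cells and 65.8 ± 0.948 CPM in DHX35-dTAG cells. In edgeR the lowest adjusted p of the list was that of Mycn in DMSO alone, 0.345, and that of E2f3 in dTAG-13 alone, 0.117. Without DHX35-dTAG DMSO replicate 2 both were called, at -0.33 and -0.23, and E2f3 was also called without replicate 1, at -0.25, where Mycn was at -0.175 and not called. The 11 microRNA machinery genes had 0 calls with either tool, 1 unadjusted p under 0.05 and a median of 0.12. In DMSO alone the median was 0.17, and in dTAG-13 alone 0.02. Their summed level was 1903 CPM in the library that stood apart and 2269 to 2382 CPM elsewhere. Ago3 (0.25) and Xpo5 (0.17), the exporter of hairpins, were called without DHX35-dTAG DMSO replicate 2, at 0.41 and 0.21, and were at 0.13 and 0.15 and not called without replicate 1. The 10 targets of the cluster had 0 calls with either tool, 2 unadjusted p under 0.05 and a median of 0.01. The largest differences were -0.37 (SE 0.31) for Tgfbr2 and -0.35 (SE 0.16) for Zbtb4. Both had few counts, 12 to 27 and 31 to 46 per library. Tgfbr2 was at -0.10 without DHX35-dTAG DMSO replicate 1 and at -0.07 without replicate 1 of that line with dTAG-13, and at -0.57 without replicate 2 of either group.

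Inside Mir17hg lie 6 microRNA hairpins, all of which had 0 counts in the 8 libraries. The tables therefore hold the host transcript and not the mature microRNAs, and the level of a host is not that of its products. The hairpins give 11 mature sequences, of which 6 are shown because they carry the seeds that define the families of this cluster. Bases 2 to 8, the seed, are in capitals, and the sequences are from RefSeq (GRCm38.p6). The seed AAAGUGC was shared by 2 of the 11 and GUGCAAA by 2.
mmu-miR-17-5p: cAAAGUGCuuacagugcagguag
mmu-miR-20a-5p: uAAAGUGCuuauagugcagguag
mmu-miR-18a-5p: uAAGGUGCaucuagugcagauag
mmu-miR-19a-3p: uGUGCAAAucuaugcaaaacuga
mmu-miR-19b-3p: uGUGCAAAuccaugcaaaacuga
mmu-miR-92a-3p: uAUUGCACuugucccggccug

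For Dancr, 20 of 23 other cytoplasmic or small nucleolar host RNAs were tested, with 1 call, 4 unadjusted p under 0.05 and a median of 0.06. The call was H19, an imprinted RNA, at 14.8, 15.2, 15.6 and 16.1 CPM in GPATCH1-dTAG cells. In DHX35-dTAG cells it was at 7.39 and 6.81 CPM with DMSO, and at 10.8 and 6.19 CPM with dTAG-13, so the lines did not overlap. The difference of H19 was 0.99 (SE 0.15, adjusted p 0.0264, edgeR). Over the other tools, filters and scalings its adjusted p was 6.22e-12 to 0.0371. The call was lost without DHX35-dTAG dTAG-13 replicate 2, at 0.82 and an adjusted p of 0.0525. It was also lost without GPATCH1-dTAG DMSO replicate 1 or 2 (0.172 and 0.166) and without GPATCH1-dTAG dTAG-13 replicate 1 or 2 (0.144 and 0.166), while the difference in these 4 fits was 0.98 to 1.00. Snhg9, with 9 to 30 counts per library, differed by -0.44 (SE 0.35). It was at -0.018 without DHX35-dTAG DMSO replicate 1 and at -0.71 without replicate 2, so its value rests on single libraries.

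Genes inside or next to the members were also examined. Small genes nested on the same strand had 0 counts, among them Snora26 within Dancr. Opposite strand genes with counts were Morc2a at Tug1, Gm37376 at Malat1 (55 to 395 counts), Gm8756 at Lncenc1 (40 to 92) and Gm43416 at Dancr (2 to 5). The count of 395 for Gm37376 was in the library that stood apart. The 12 nearest tested genes on either side of the members, other than members, were examined for the line difference over both treatments. Not all were close by. Distances ran from 4223 bases for Frmd8 at Neat1 to 1726124 and 1878587 bases for Tpm3-rs7 and Gpc6 at Mir17hg. Those at Firre were 229211 and 205725 bases away. Of the 12 genes 0 were called with edgeR or DESeq2, and 0 had an unadjusted p under 0.05. The lowest adjusted p among them was 0.336, for Enc1, 181935 bases from Lncenc1 (edgeR). In DMSO alone 1 had an unadjusted p under 0.05 and in dTAG-13 alone 0, with 0 calls in either.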

How the data were processed

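The authors deposited raw counts per gene symbol for each of the 8 libraries. By the submitters' notes RNA was depleted of ribosomal RNA, libraries were stranded, reads were trimmed (Trim Galore 0.6.6) and aligned with STAR 2.7.5c. The counting program and its strand setting are not given in the sources used here, so genes that overlap on opposite strands are uncertain. The human RNA added as a spike-in was not used here. The members and the gene lists were chosen with earlier results of these data known.

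Counts were fitted in R 4.3.3 with edgeR 4.0.16 (TMM, filterByExpr on the 4 groups, 1 term per group, quasi-likelihood tests), with Benjamini-Hochberg adjustment over all genes tested and a threshold of 0.05. The fit's common dispersion of 0.0125 corresponds to 11.2% variation between replicates. Positions and exon lengths are those of GENCODE M21, which matched 53292 of the symbols. The lists were nuclear, ES cell and cytoplasmic long non-coding RNAs, paraspeckle and speckle proteins, 3 prime end and decay factors, Firre partners, regulators, machinery and targets of the microRNA cluster, and markers of 4 cell types, of which 1 gene is not reported here. From each list were named the genes called and the 2 with the largest line differences at a mean of at least 1 CPM, and for each member the 2 genes with the highest correlation. H19, Platr14 and Hnrnph3 were set out by library or mean after their values were seen. Alternatives were DESeq2 1.42.0, its size factors, total counts, other filters, a replicate block, other library sets and leaving out each library.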

Additional observations from a re-analysis of the deposited data

Results flagged for a closer look

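Neat1 differed between the lines in its direction with dTAG-13, at a log2 difference of -0.14 for the DHX35-dTAG line and 0.15 for the GPATCH1-dTAG line. Both dTAG-13 libraries lay below both DMSO libraries in the first line and above them in the second. The difference between the lines was not tested, since these treatment values chose the genes. Without DHX35-dTAG DMSO replicate 1 the first value was -0.04.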

How the results depend on the processing

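Line differences of the members kept their sign over the other tools, scalings and filters except as follows. Tug1 over both treatments was 0.0048 with total counts and 0.0048 with no filter. With total counts in DMSO, Neat1 was -0.17, Tug1 -0.053 and Mir17hg -0.18, and in dTAG-13 Tug1 was 0.063 and Mir17hg 0.014. With at least 10 counts in every library Mir17hg in DMSO was -0.00013. The shifts of all genes with total counts are of like size. For the other changes the cause was not tested.

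Leaving out single libraries gave line differences over both treatments of -0.10 to 0.093 for Tug1, -0.086 to 0.042 for Dancr and -0.0049 to 0.069 for Tubb3. In DMSO they were -0.067 to 0.10 for Neat1, -0.20 to 0.036 for Firre, -0.039 to 0.35 for Tug1, -0.079 to 0.11 for Mir17hg and -0.19 to 0.064 for Dancr. In dTAG-13 they were -0.035 to 0.14 for Malat1, -0.39 to -0.026 for Mir17hg and -0.012 to 0.053 for Dancr.

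Genes called numbered 16 to 5149 over both treatments, 4 to 5887 in DMSO and 4 to 660 in dTAG-13 when single libraries were left out, with 0 to 2, 0 to 4 and 0 to 2 members. With DESeq2 they numbered 132, 48 and 46, with 1, 1 and 0 members. With total counts they were 254, 703 and 70, with 0 members. With no filter they were 890, 986 and 158, with 1, 1 and 0 members. With at least 10 counts in every library they were 82, 4 and 4, and with only the compared libraries 2 in DMSO and 342 in dTAG-13, where 1 member, Neat1, was called at 0.30. A replicate block gave 132, 16 and 19, with Lncenc1 at 0.36 and not called over both treatments. Replicate differences correlated between groups at 0.04 to 0.23, so the replicate numbers do not clearly pair libraries. The cause of these changes was not tested.

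Genes called with dTAG-13 in DHX35-dTAG cells numbered 319 with total counts, 345 with no filter, 1 with DESeq2, 1 with only the compared libraries and 0 to 4949 without single libraries. In GPATCH1-dTAG cells they numbered 10 with total counts, 21 with no filter, 127 with only the compared libraries and 0 to 51 without single libraries. The median of the member differences was -0.37 with total counts and -0.23 to -0.088 without single libraries in DHX35-dTAG cells, and 0.014 with total counts in GPATCH1-dTAG cells. The median replicate SD of the members' log2 CPM was 0.10 with TMM factors. On total-count CPM another measure was taken, the absolute log2 ratio of replicate 2 to replicate 1. Its median over members and groups was 0.18, and 0.096 with the 2 highest genes left out of the totals.

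With 2 libraries in each group the spread rests on few values, and a p that misses the threshold does not show that levels did not differ. Counts per gene do not resolve transcript forms of Neat1 or Firre, RNA in the nucleus as against the cytoplasm, or mature microRNAs. Dancr, with the fewest counts, had 361 to 547 per library.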
